A study of Danio rerio with 10 samples.

Results

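The red blood cell programme outside the globins was followed through 7 genes in cells sorted from adult zebrafish ventricles: alas2, slc4a1a, epor, cahz, hemgn, tfr1a and nt5c2l1. They were chosen as non-globin erythroid genes by symbol, or by the identifier ENSDARG00000012881 for slc4a1a, and all 7 were found among the 32520 gene identifiers counted. Each passed the filter on low counts in every comparison. Alas2 (ENSDARG00000038643) is the erythroid aminolevulinate synthase, which starts haem synthesis. Slc4a1a is band 3, the chloride and bicarbonate exchanger of the red cell membrane and an anchor of its skeleton. Epor (ENSDARG00000090834) is the receptor for erythropoietin. Cahz (ENSDARG00000011166) is the carbonic anhydrase of zebrafish red cells, hemgn (ENSDARG00000096667) encodes hemogen, a nuclear protein of blood cell differentiation, and tfr1a (ENSDARG00000101322) is the transferrin receptor of erythroid iron uptake. Nt5c2l1 (ENSDARG00000034852) belongs to the cytosolic purine nucleotidases.

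Red cells of fish keep their nucleus and go on making RNA, so erythroid transcripts can be read in any pool that holds them. Developing red cells take up transferrin-bound iron, build haem in the mitochondria and cytosol, and pack it into globin, while the membrane is rebuilt around band 3 and a spectrin skeleton. Erythropoietin signals through its receptor to keep this programme going, and loss of alas2, slc4a1a or tfr1a causes anaemia in zebrafish mutants.

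The libraries were made from polyadenylated RNA of 6000 sorted cells from 15 adult ventricles each, and all carry the cell type label platelets. In the first experiment, eGFP-positive cells of Tg(CD41.eGFP) fish were sorted after part of the ventricle was amputated, from 3 wild-type pools and 3 clofv087b/+ pools (clo/+ below), which carry 1 mutant copy of cloche, the npas4l locus. In the second, DsRed-positive cells of Tg(gata1a:DsRed) fish were sorted 7 days after 4-HT (4-hydroxytamoxifen). Its 2 libraries labelled Npas4l OE (OE libraries below) combine the transgene ubi:loxp-eGFP-stop-loxp-Npas4l, driven by the ubi promoter, with the recombinase gata1a:Cre-ERT2, driven by the gata1a promoter. No amputation is given for them. Of its 2 controls, replicate 2 has the transgene without the recombinase, and replicate 1 is labelled clofv087b/+, which goes against its title. The sample labels put the first experiment at 1 day after amputation and the series text at 3 days. Libraries were grouped by title. Nothing says whether pools of a group came from separate clutches or days, so p-values measure the spread between these pools.

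Gene counts ran from 6764258 to 13067068 per library, and the 7 genes together had between 0.00583% and 0.313% of them. Counts of same-group libraries differed beyond sampling error (chi-square of 11.04 to 43.6 per degree of freedom), so each library was 1 sample. The targeted gene npas4l stood at 0.889 to 4.04 CPM (counts scaled to a common library size with TMM factors) in the 6 CD41 libraries, at 42.1 and 30.3 CPM in the gata1a controls, and at 57.2 and 27.4 CPM in the OE libraries. The OE libraries lay on both sides of the controls (log2 fold change 0.21, SE 0.35, edgeR adjusted p 0.826), so directions for them follow from the titles. The thrombocyte genes itga2b and mpl were detected in all groups, and so were summed globins and summed heart muscle markers. Summed over 15 identifiers, thrombocyte markers ran from 3587 to 6558 CPM in the CD41 libraries and from 8501 to 11438 CPM in the gata1a libraries. Of 11 lymphocyte markers, cd8a and PAX5 were at 0 in all 10 libraries and the list summed to at most 20.01 CPM.

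The 7 genes had their highest levels in the CD41 libraries and their lowest in the OE libraries. Alas2 stood at 257, 294 and 356 CPM in wild type, at 373, 490 and 520.0 CPM in clo/+, at 76.3 and 34.5 CPM in the gata1a controls, and at 9.004 and 17.1 CPM in the OE libraries. The 4 groups did not overlap for alas2. Its group means were 302 ± 50.4, 461 ± 77.5, 55.4 ± 29.5 and 13.1 ± 5.76 CPM (SD, n = 3, 3, 2 and 2). Hemgn read 150.1, 172 and 154 CPM across wild type, beside 186, 132 and 162 CPM for clo/+, 40.6 and 24.5 CPM in controls and 4.69 and 8.06 CPM in the OE libraries. Its CD41 groups overlapped fully, and its gata1a groups lay apart. The order control above Npas4l OE, with no overlap, was found for each of the 7 genes, against 23.7% of all tested genes. Every CD41 library was above every gata1a library for each of them, for which no share of all genes was counted. In the less strict case of wild-type CD41 and gata1a controls alone, 24.4% of all tested genes had CD41 ranges wholly above.

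**Figure D1:**
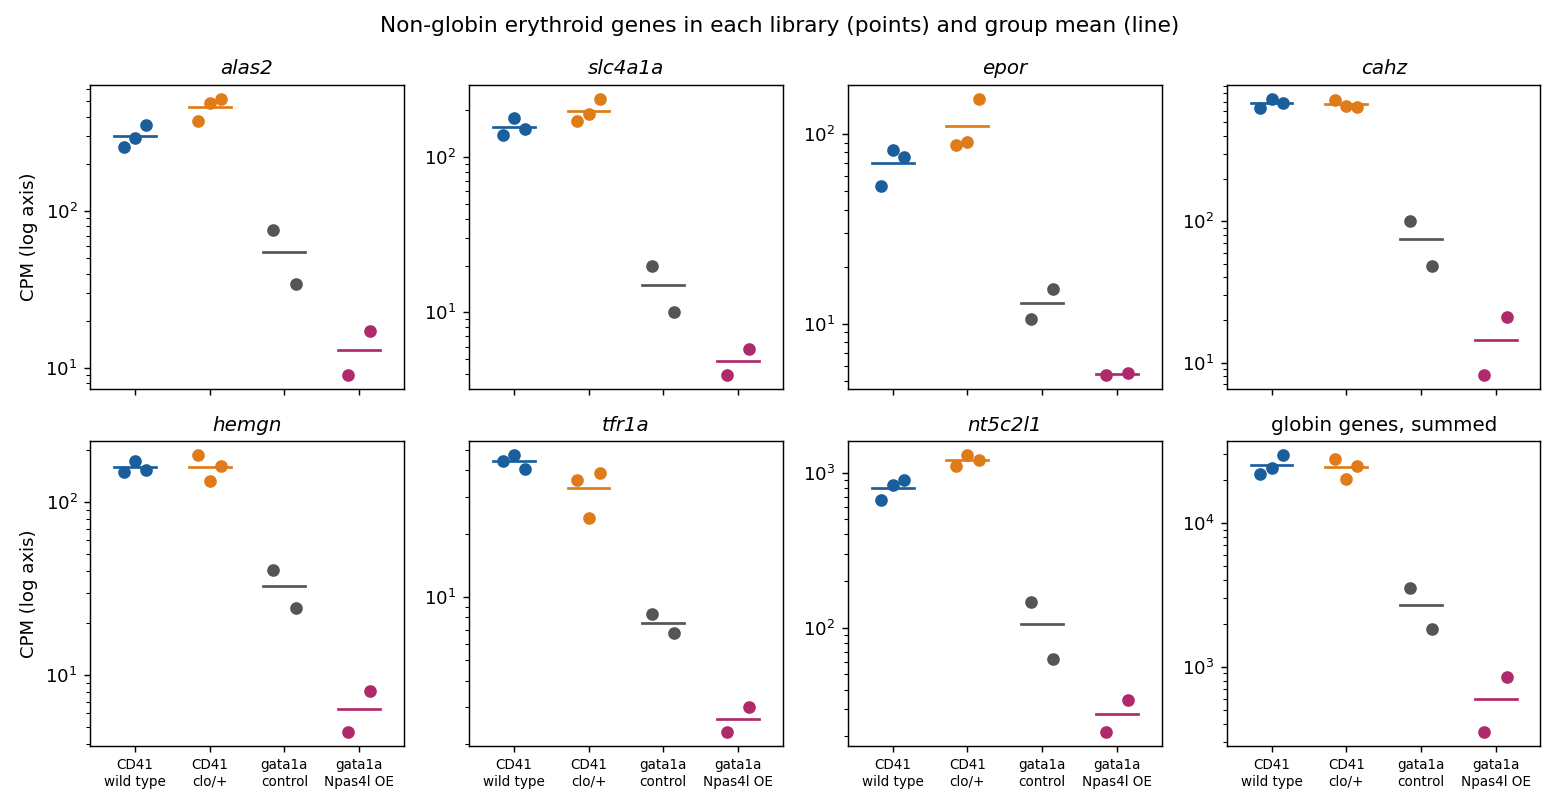
CPM on a log axis of 7 non-globin erythroid genes and of the summed globin genes in each of the 10 libraries (points), with the mean of each group (line). In all 8 panels both OE libraries lie below both gata1a controls, which lie below all 6 CD41 libraries.

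The first comparison asked what 1 mutant clo copy does to CD41-sorted cells of the injured heart. No member passed the threshold, an adjusted p under 0.05 (quasi-likelihood test of edgeR, Benjamini-Hochberg adjustment over 13749 genes, of which 0.0145% passed). DESeq2 also called 0 of the 7. At an unadjusted p under 0.05, 3 of the 7 genes were higher in clo/+ and 0 lower, where 7.19% and 4.79% of all tested genes were. By sign, 5 of the 7 were higher, against 49.8% of all tested genes, with hemgn counted among the 5 at a log2 fold change of 0.0014 (SE 0.21). The median log2 fold change of the 7 genes was 0.34 and that of all tested genes -0.0021, and without clo/+ replicate 3 the former was 0.19.

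The haem enzyme, the nucleotidase and the receptor had the highest fold changes in clo/+. Alas2 had a log2 fold change of 0.60 (SE 0.22, edgeR unadjusted p 0.0144, adjusted p 0.290), with all 3 clo/+ libraries above all 3 wild-type libraries. Nt5c2l1 read 670, 833 and 893 CPM across the wild-type libraries, beside 1099, 1293 and 1211 CPM for clo/+, a log2 fold change of 0.58 (SE 0.22, edgeR adjusted p 0.300). These groups did not overlap either. Epor, also without overlap, read 53.2, 82.9 and 75.5 CPM in wild type, beside 87.9, 90.7 and 154 CPM for clo/+, a log2 fold change of 0.64 (SE 0.25, edgeR adjusted p 0.313). Without clo/+ replicate 3, its highest library, the value for epor was 0.32.

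The remaining members gave no common direction in clo/+. Band 3 overlapped between the groups, with 138, 177 and 150.4 CPM for wild type beside 171, 187 and 236 CPM for clo/+ (log2 fold change 0.34, SE 0.21, edgeR adjusted p 0.53), and without clo/+ replicate 3 the value was 0.19. Cahz read 636, 734 and 689 CPM across wild type, beside 724, 656 and 641 CPM for clo/+. It averaged 686 ± 49.3 CPM against 674 ± 44.3 CPM (SD, n = 3 each), and its log2 fold change of -0.038 had an SE of 0.21. Hemgn was at 159 ± 11.6 and 160.0 ± 27.05 CPM (SD, n = 3 each), with a log2 fold change of 0.0014 (SE 0.21). For these 2 genes the sign turned with the scaling, the test or the library left out. The iron receptor tfr1a lay on the other side: it read 44.5, 47.2 and 40.6 CPM in wild type, beside 36.1, 23.7 and 39.1 CPM for clo/+, a log2 fold change of -0.43 (SE 0.23, edgeR adjusted p 0.458). Its groups did not overlap, but without clo/+ replicate 2 the value was -0.24. CPM ranges did not overlap upwards for 3 of the 7 genes and downwards for 1, against 9.63% and 8.59% of all tested genes.

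Markers of other cells stood as follows in the CD41 libraries, and their part in these values was not tested. Of 15 tested thrombocyte identifiers 10 were lower in clo/+, and the list summed to 5422 to 6558 CPM in wild type, beside 3587 to 6361 CPM for clo/+. At an unadjusted p under 0.05, 4 of the 15 were lower and 1 higher, against 4.79% and 7.19% of all tested genes. Of 16 tested macrophage identifiers 14 were higher, with sums of 517 to 685 and 753 to 858 CPM. By the same unadjusted threshold, 6 of the 16 were higher and 0 lower. By sign alone 49.8% of all tested genes were higher in clo/+. All 9 tested endothelial identifiers were higher in clo/+ (median log2 fold change 0.50). At an unadjusted p under 0.05, 4 of the 9 were higher, against 7.19% of all tested genes. Their sums overlapped at 861 to 1030 and 979 to 1170 CPM. FLI1 made up most of these sums, with a mean of 556 of 956 CPM in wild type and 563 of 1097 CPM in clo/+ (n = 3 each). Of 6 tested neutrophil identifiers 5 were lower, with a median of -0.43. At an unadjusted p under 0.05, 1 of 6 was lower, against 4.79% of all tested genes. The neutrophil sums did not overlap, at 3483 to 4000 CPM in wild type and 1511 to 3348 CPM in clo/+. Nearly all of that sum was srgn, the granule proteoglycan serglycin, which other blood cells also express, with a mean of 3585 of 3692 CPM in wild type and 2515 of 2588 CPM in clo/+ (n = 3 each), while the lysozyme gene lyz was at 0 in 7 of the 10 libraries. No identifier of these lists was called in clo/+. Heart muscle markers overlapped, with 19667 to 35856 and 22561 to 36757 CPM. In sorted pools, fewer cells of a type and less RNA per cell cannot be told apart.

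The second comparison asked what switching on npas4l does to gata1a-sorted cells. All 7 genes were lower in the OE libraries, from 2.41-fold for epor to 5.16-fold for cahz, yet none passed the threshold in edgeR's test fitted to these 4 libraries, which 0.0357% of 14006 genes passed. At an unadjusted p under 0.05, 7 of 7 were lower, against 9.36% of all tested genes. By sign alone 50.6% of all tested genes were lower. The ranges lay apart for 7 of 7, against 23.7% of all genes in that direction. The median log2 fold change was -1.93, where that of all tested genes was -0.010.

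Cahz and hemgn had the lowest fold changes. Cahz read 101 and 48.6 CPM in the controls, beside 8.12 and 20.9 CPM with OE, a log2 fold change of -2.37 (SE 0.45, edgeR adjusted p 0.0900). Hemgn had -2.35 (SE 0.38, edgeR adjusted p 0.0605), the smallest p of the 7. Alas2 had -2.08 (SE 0.42, edgeR adjusted p 0.0984). For each of them the higher OE library lay below the lower control. Nt5c2l1, the nucleotidase, read 147 and 62.8 CPM in the controls, beside 21.3 and 33.98 CPM with OE, a log2 fold change of -1.93 (SE 0.39, edgeR adjusted p 0.0984).

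The membrane exchanger and both receptors had the smallest fold changes. Slc4a1a read 19.8 and 10.01 CPM in the controls, beside 3.93 and 5.78 CPM with OE, a log2 fold change of -1.62 (SE 0.44, edgeR adjusted p 0.15). Tfr1a read 8.33 and 6.71 CPM, beside 2.28 and 2.995 CPM with OE, which rests on 18 to 68 counts per library, with a log2 fold change of -1.51 (SE 0.50, edgeR adjusted p 0.202). Epor read 10.5 and 15.3 CPM, beside 5.33 and 5.47 CPM with OE, a log2 fold change of -1.27 (SE 0.39, edgeR adjusted p 0.184). Epor was the only one of the 7 that was higher in control replicate 2 than in replicate 1. Between the OE libraries, replicate 2 had the higher value for all 7 genes.

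The number of members called differed between settings. One fit of all 10 libraries, which shares the spread between both experiments, called 5 of the 7: alas2, slc4a1a, cahz, hemgn and nt5c2l1, with adjusted p from 0.00185 to 0.0322 and 110 genes called in all. DESeq2 called the same 5 among 385 genes, and limma-voom called 4 among 90. Epor and tfr1a were called under none of the 15 alternative settings, though DESeq2 gave tfr1a no adjusted p. The sign stayed negative in all 105 refitted values. Without control replicate 1, whose genotype label goes against its title, the median was -1.41, nt5c2l1 had -1.20 and slc4a1a -1.06. With a library left out, a group holds a single library, so member calls in such fits are not counted here.

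**Figure D2:**
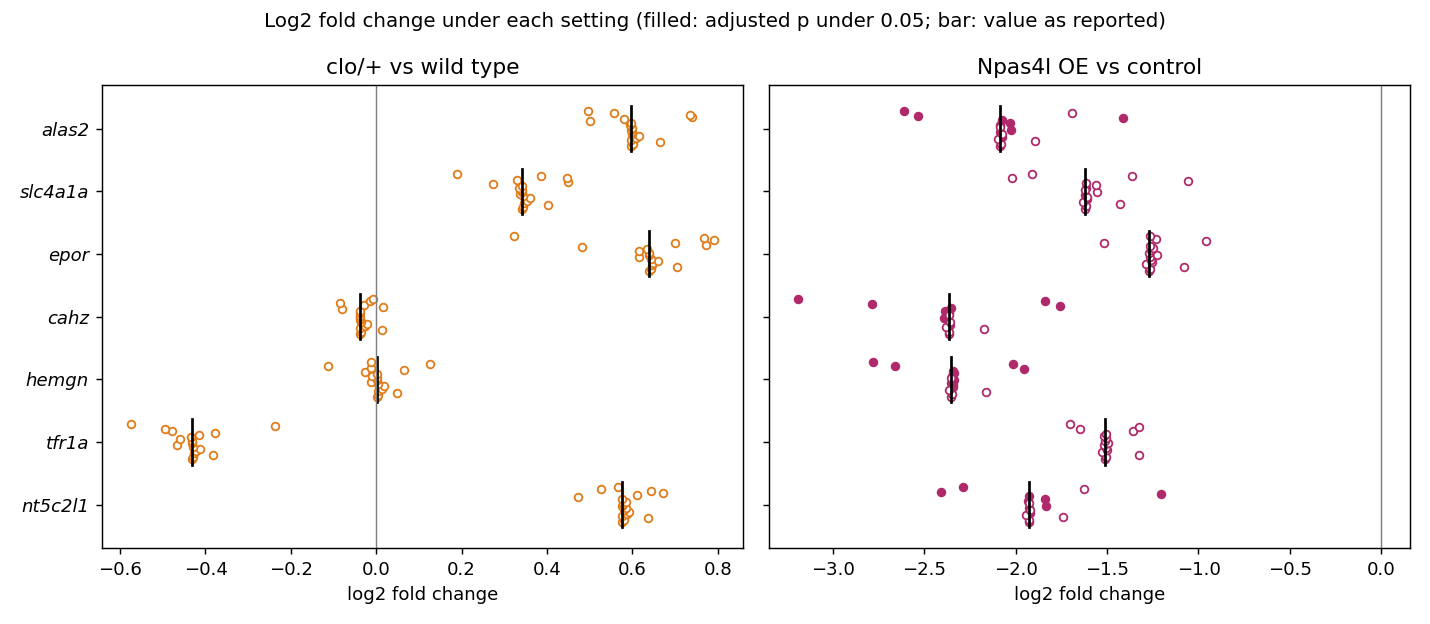
Log2 fold change of each gene as reported (black bar) and under every alternative setting (points), filled where the adjusted p was under 0.05, for clo/+ against wild type and for Npas4l OE against control. In clo/+ no point is filled and cahz and hemgn sit at 0; in the gata1a experiment all points lie below 0, and epor and tfr1a have no filled point.

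Markers of other cells stood as follows in the gata1a libraries, and their part in these values was not tested. Of 15 tested heart muscle identifiers 15 were lower with OE, summing to 49781 and 62236 CPM in the controls, beside 30324 and 29209 CPM. At an unadjusted p under 0.05, 12 of the 15 were lower, against 9.36% of all tested genes. For 13 of them both OE libraries lay below both controls, against 23.7%. Of 15 tested macrophage identifiers 14 were lower, summing to 1428 and 2433 CPM, beside 308 and 1036 CPM. By the same 2 measures 10 and 11 of the 15 were lower. The thrombocyte list summed to 9916 and 8501 CPM in the controls, beside 11438 and 10606 CPM with OE, with 10 of 14 tested identifiers higher. At an unadjusted p under 0.05, 3 of the 14 were higher and 1 lower, against 6.11% and 9.36% of all tested genes. Of 9 tested endothelial identifiers 7 were lower, with a median of -0.48. By the same unadjusted threshold, 4 of the 9 were lower and 2 higher. The endothelial list summed to 1791 and 1635 CPM in the controls, beside 1872 and 1759 CPM with OE. FLI1 made up most of that sum, with a mean of 872 of 1713 CPM in the controls and 1259 of 1816 CPM with OE. FLI1 and tek were higher with OE (log2 fold changes 0.52 and 0.67), and kdrl, cdh5, vwf and plvapb had -0.97, -1.25, -0.93 and -1.22. The neutrophil list summed to 2034 and 1489 CPM, beside 2151 and 1947 CPM. Gata1a, the gene behind the sorting reporter, read 706 and 385 CPM in the controls, beside 821 and 647 CPM with OE (log2 fold change 0.42, SE 0.28, edgeR adjusted p 0.519).

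The difference between the experiments' effects was then tested in one fit of all 10 libraries, a contrast added after the values were seen. The log2 fold change with Npas4l OE was lower than that in clo/+ for 6 of the 7 genes at an adjusted p under 0.05, which 0.559% of 15380 genes were in that direction. The difference was -2.68 for alas2 (SE 0.45, edgeR adjusted p 0.0102), -2.51 for nt5c2l1 (0.43, 0.0113) and -2.35 for hemgn (0.39, 0.00918). It was -2.33 for cahz, -1.96 for slc4a1a and -1.90 for epor, with edgeR adjusted p of 0.0302, 0.0387 and 0.0447. Tfr1a had -1.08 (SE 0.42, edgeR adjusted p 0.228). These calls changed with the libraries used: 3 of the 7 were called without wild-type replicate 1, wild-type replicate 2 or clo/+ replicate 1. Leaving out a gata1a library leaves a single library in its group, so member calls in those fits are not counted. The comparisons share no library, and they differ in reporter, injury and drug as well as in npas4l.

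**Figure D3:**
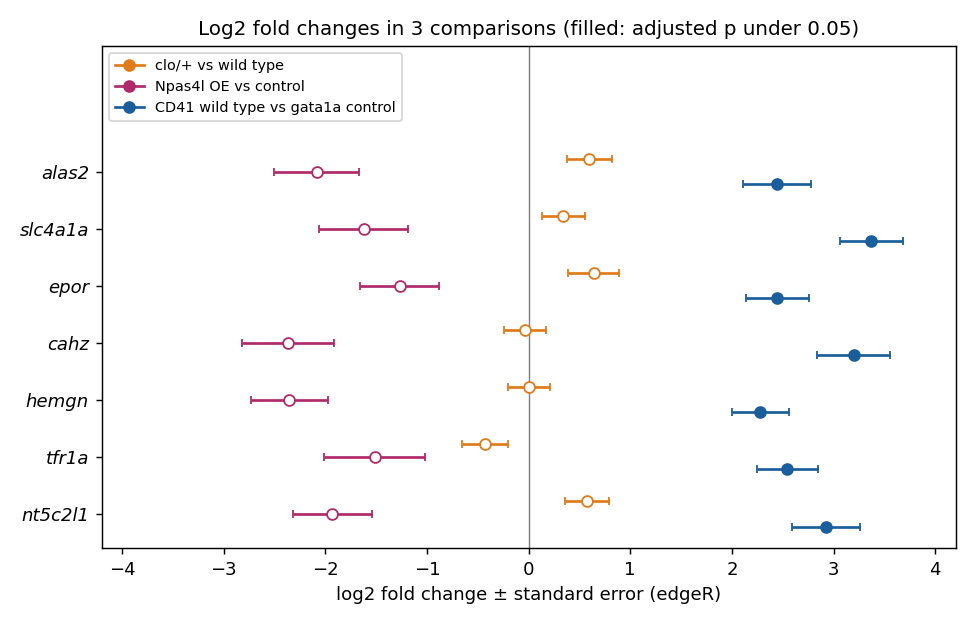
Log2 fold change with its standard error (bar) of each gene in 3 comparisons, filled where the adjusted p in edgeR was under 0.05. All 7 genes lie below 0 for Npas4l OE against control and above 2 for CD41 wild type against gata1a control, and they spread from -0.43 to 0.64 in clo/+.

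The sorts themselves differed most. In the fit of all 10 libraries, all 7 genes were higher in CD41 wild type than in the gata1a controls at an adjusted p under 0.05, against 10.7% of all tested genes in that direction. Band 3 had the highest log2 fold change, 3.37 (SE 0.31, edgeR adjusted p 1.14e-06), or 10.3-fold, and hemgn the lowest, 2.28 (SE 0.28, edgeR adjusted p 2.44e-05), or 4.86-fold. All 7 were called under each of the 15 alternatives, and the median, 2.55, was 3.13 without gata1a control replicate 1. Between these groups the reporter, the injury, the drug and the genotype all differ and cannot be told apart. Itga2b, the CD41 gene, was lower in CD41 wild type, averaging 1011 ± 147 CPM (SD, n = 3) beside 2495 ± 376 CPM (SD, n = 2), a log2 fold change of -1.30 (SE 0.32, edgeR adjusted p 0.00704).

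The 7 genes and the globins were set side by side in each library. Their summed level ran from 54.7 CPM in Npas4l OE replicate 1 to 2963 CPM in clo/+ replicate 3, and the 16 globin genes summed to 353 and 25041 CPM in those libraries. Per 100 globin CPM, the 7 genes had 8.89, 9.63 and 7.98 CPM in wild type, beside 9.66, 14.1 and 11.8 CPM for clo/+. The ratio was 11.4 and 10.9 in the gata1a controls and 15.5 and 11.07 with OE. The CD41 groups did not overlap in this ratio, narrowly, and the gata1a groups did. Nt5c2l1 was the largest part of the 7-gene sum in every CD41 library, from 34.4% to 45.01% of it. Taken gene by gene, as described below, only nt5c2l1 and alas2 kept the CD41 groups apart per globin. Among the globins themselves, 2 of 8 tested genes were higher in clo/+ with a list median of -0.075. With OE 6 of 6 were lower with a median of -2.19 and 1 called, where 0.0357% of all tested genes were called.

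**Figure D4:**
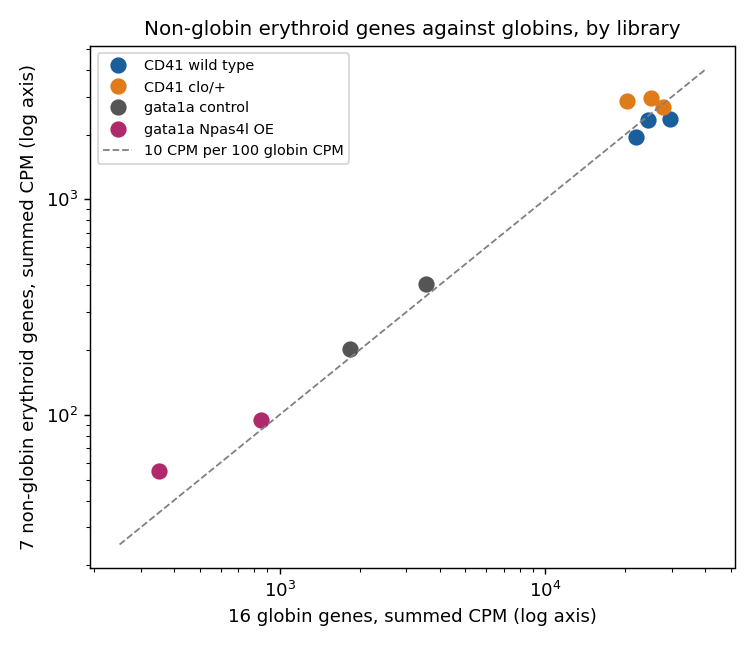
Summed CPM of the 7 non-globin erythroid genes against summed CPM of 16 globin genes in each library, both on log axes, with a dashed line at 10 CPM per 100 globin CPM. The 3 wild-type libraries and clo/+ replicate 1 lie below the line and the other 6 libraries above it.

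The ratio was then taken gene by gene in the CD41 libraries, as a description with no test. Per 1000 globin CPM, alas2 read 11.7, 12.1 and 12.1 CPM in wild type, beside 13.5, 24.0 and 20.8 CPM for clo/+. Nt5c2l1 read 30.6, 34.3 and 30.2 CPM, beside 39.6, 63.5 and 48.4 CPM. Both genes read higher per globin in every clo/+ library than in any wild-type library, for which no share of all genes was counted. Both already lay apart in CPM, from which the ratio is made, so the ratio is not a separate result. The globin sums overlapped, at 21914 to 29552 CPM in wild type and 20363 to 27723 CPM in clo/+. The groups overlapped for slc4a1a, epor, hemgn and tfr1a. Cahz overlapped too, with 29.0, 30.2 and 23.3 CPM for wild type beside 26.1, 32.2 and 25.6 CPM for clo/+. As a share of the 7 genes, nt5c2l1 took 34.4% to 37.9% for wild type, beside 40.9% to 45.01% for clo/+. In the same order, cahz took 29.2% to 32.6% and 21.6% to 27.1%, and tfr1a took 1.72% to 2.28% and 0.824% to 1.35%. Shares of one sum depend on each other, so a lower share does not show a lower level. The CPM of cahz overlapped between these groups.

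The paralogues of the 7 genes had other values. The second identifier with the symbol SLC4A1, ENSDARG00000024560, had 0 counts in all 10 libraries, and all counts of that symbol were at ENSDARG00000012881. The other transferrin receptor, tfr1b, averaged 42.1 ± 8.77 CPM for wild type, 49.1 ± 6.75 CPM for clo/+ (SD, n = 3 each), 14.9 ± 4.08 CPM for the controls and 14.3 ± 1.43 CPM for OE (SD, n = 2 each). Its log2 fold change with Npas4l OE was -0.064 (SE 0.33), beside -1.51 for tfr1a. ALAS1, the aminolevulinate synthase of all tissues, had 0.15 (SE 0.26) there, beside -2.08 for alas2, and 0.88 (SE 0.34, edgeR adjusted p 0.309) in clo/+. The nucleotidases nt5c2a and nt5c2b had -0.64 (SE 0.22) and -0.36 (SE 0.34) with Npas4l OE. The differences between the copies were not tested. In RefSeq's table of another assembly (GRCz12tu), hemgn overlaps anp32b, alas2 a non-coding RNA, and nt5c2l1 slc2a11l, another coding gene and a non-coding RNA, and reads there could be lost or exchanged. ANP32B averaged 102 ± 12.4 CPM in the controls, beside 95.4 ± 1.01 CPM with OE (SD, n = 2 per group), and its log2 fold change was -0.10 (SE 0.22). Slc2a11l had signs opposite to nt5c2l1, with 0.72 with OE (SE 0.42, edgeR adjusted p 0.460) and -0.78 in clo/+ (SE 0.37, edgeR adjusted p 0.415). It averaged 17.7 CPM in wild type, 10.4 CPM in clo/+, 16.6 CPM in the controls and 27.4 CPM with OE. In the same order nt5c2l1 averaged 798, 1201, 105 and 27.6 CPM, so the 2 genes changed by unlike amounts. An exchange of reads was not tested.

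Haem synthesis beyond alas2 had a median near 0 with OE. Of 16 tested identifiers of haem synthesis, 9 were lower and 7 higher with Npas4l OE, with a median of -0.042, and 0 were called there or in clo/+. At an unadjusted p under 0.05, 1 of 16 was higher with Npas4l OE, against 6.11% of all tested genes, and 4 of 17 in clo/+, against 7.19%, and none was lower in either. CPOX, the coproporphyrinogen oxidase, was higher in both experiments, with log2 fold changes of 0.94 (SE 0.32, edgeR adjusted p 0.221) with Npas4l OE and 0.72 (SE 0.24, edgeR adjusted p 0.246) in clo/+. CPOX and one ABCB6 copy (ENSDARG00000063297), a porphyrin transporter, were called higher in CD41 wild type than in the gata1a controls, at 1.66 and 2.08.

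Iron genes stood in both directions. With Npas4l OE 18 of 26 tested identifiers were lower with a median of -0.19, and in clo/+ 19 of 28 were higher with a median of 0.26, with 0 called in either. At an unadjusted p under 0.05, 7 of 26 were lower and 2 higher with OE, against 9.36% and 6.11% of all tested genes. In clo/+ 8 of 28 were higher and 0 lower by that threshold, against 7.19% and 4.79%. SLC40A1, the iron exporter ferroportin, had -1.45 with Npas4l OE (SE 0.36, edgeR adjusted p 0.131), and IREB2, the iron-sensing RNA-binding protein, had 1.14 (SE 0.28, edgeR adjusted p 0.13). Between the sorts 6 of 28 were called higher and 6 lower in CD41 wild type, where 10.7% of all tested genes were called higher and 9.71% lower. Those higher included the iron sensor TFR2 at 3.58, the mitochondrial iron carrier SLC25A37 at 2.25, tfr1b and the ferritin gene fth1a. The value for TFR2 (SE 0.76) rests on few counts, 6 and 0 in the gata1a controls beside 26, 44 and 41 in wild type. Another ferritin identifier, FTH1 (ENSDARG00000007975), was called lower, so the ferritin genes gave no common direction. Those lower also included SLC40A1 at -2.07 and the haem oxygenase HMOX1 at -1.39, genes of iron recycling, which macrophages also express.

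Membrane and skeleton genes had the lowest median of the pathway lists with OE. Of 17 tested identifiers 14 were lower with Npas4l OE, with a median of -0.74 and 0 called. At an unadjusted p under 0.05, 6 of 17 were lower, against 9.36% of all tested genes. SPTB, the spectrin beta chain, had -0.81 (SE 0.24, edgeR adjusted p 0.176), and TMOD4, a tropomodulin that caps actin filaments, had -2.13 (SE 0.79, edgeR adjusted p 0.240). ADD1, an adducin, had 1.04 there (SE 0.29, edgeR adjusted p 0.159) and 0.79 in clo/+ (SE 0.23, edgeR adjusted p 0.214). In CD41 wild type 9 of 18 were called higher than in the gata1a controls and 3 lower, against 10.7% and 9.71% of all tested genes. Those higher included epb41b (protein 4.1) at 3.69, one ANK1 copy (ankyrin, ENSDARG00000059093) at 3.15, DMTN (dematin) at 2.54 and the adducin add2 at 2.50. RHAG, GYPC and TMOD1 were called lower, at -1.39, -1.82 and -1.27.

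Regulators also stood in both directions. Of 26 tested, 17 were higher with Npas4l OE and 13 in clo/+, with medians of 0.18 and -0.026 and 0 called. Klf1, the erythroid Kruppel-like factor, read 6.49 and 5.53 CPM in the controls, beside 1.90 and 0.826 CPM with OE, a log2 fold change of -2.16 (SE 0.65, edgeR adjusted p 0.176). In clo/+ the smallest p values belonged to one SOCS3 copy (ENSDARG00000025428), an inhibitor of cytokine signalling, at -0.82 (SE 0.22, edgeR adjusted p 0.166), to the repressor GFI1B at -0.77 (SE 0.22, edgeR adjusted p 0.200), and to the ligand epoa. Epoa, which encodes erythropoietin, read 68.5, 63.7 and 76.7 CPM in wild type, beside 143, 88.1 and 126 CPM for clo/+, a log2 fold change of 0.76 (SE 0.22, edgeR adjusted p 0.201). Ligand and receptor both read higher in every clo/+ library than in any wild-type library, and neither passed the threshold. Of the 26 regulators, 4 had clo/+ ranges wholly above wild type and 4 wholly below, against 9.63% and 8.59% of all tested genes. At an unadjusted p under 0.05, 3 of the 26 were higher in clo/+ and 5 lower, against 7.19% and 4.79%. With OE, epoa had -0.69 (SE 0.25, edgeR adjusted p 0.240). Between the sorts 5 of 26 regulators were called higher in CD41 wild type and 2 lower, beside the same 10.7% and 9.71% of all genes. Those higher were klf1 at 2.88, klf17 at 2.22, both SOCS3 copies at 1.95 and 1.92, and CISH, another inhibitor of cytokine signalling, at 1.62. GATA2, a factor of blood stem and progenitor cells, was lower at -1.10 and the kinase gene jak2a at -0.63. Of 18 tested red cell enzymes 14 were lower with Npas4l OE with a median of -0.23. The glutathione peroxidase gpx1a had the smallest p of them, at -1.09 (SE 0.23, edgeR adjusted p 0.0988). In clo/+ 16 of 19 were higher with a median of 0.22, where 49.8% of all tested genes were higher by sign. At an unadjusted p under 0.05, 2 of the 19 were higher in clo/+ and 0 lower, against 7.19% and 4.79% of all tested genes. With OE 3 of 18 were lower and 2 higher, against 9.36% and 6.11%, and 0 were called in either. Between the sorts 2 of 19 enzymes were called higher in CD41 wild type and 4 lower, with a median of -0.050. The shares of all tested genes were 10.7% and 9.71%. Gpx1a and TXN were higher, and CAT, NT5E, AK1 and nt5c2a lower.

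**Figure D5:**
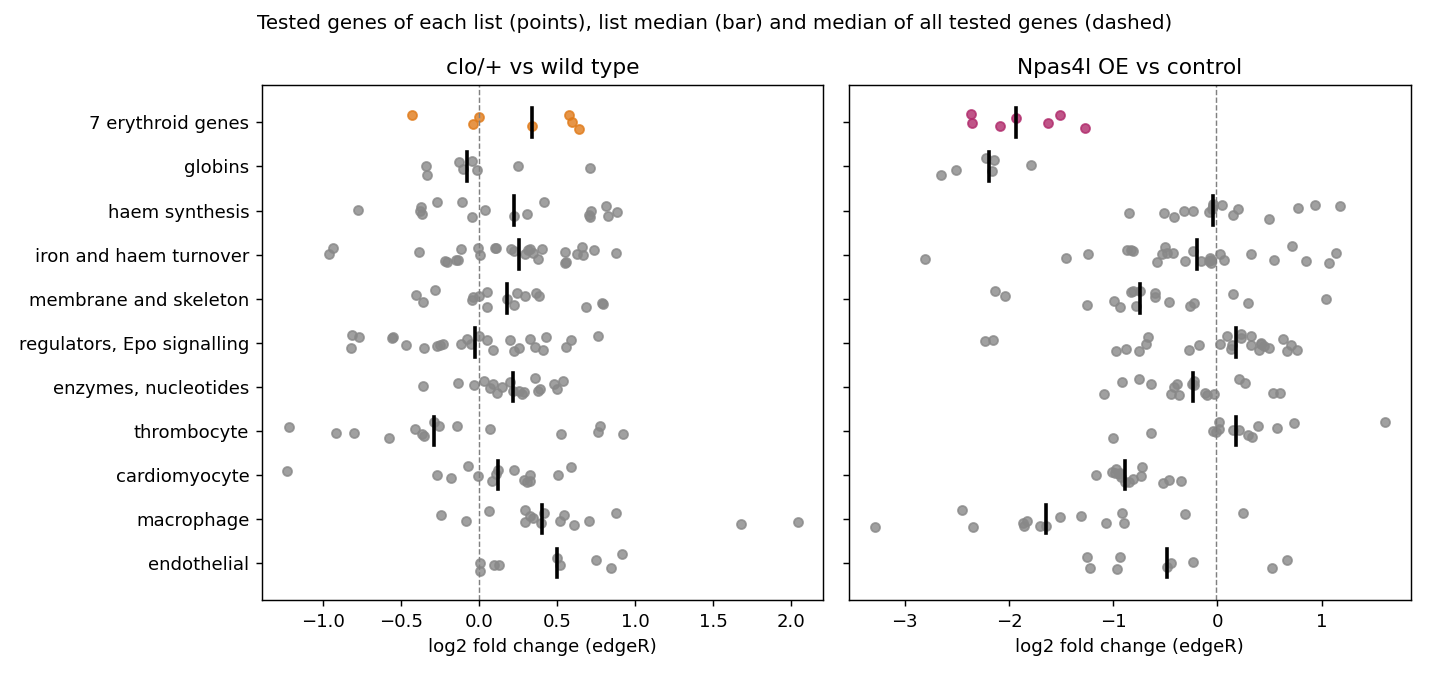
Log2 fold change of the tested identifiers of each gene list (points) with the list median (bar) for clo/+ against wild type and Npas4l OE against control; the dashed line is the median of all tested genes. With Npas4l OE the 7 erythroid genes and the globins have medians of -1.93 and -2.19, beside -1.65 for macrophage, -0.88 for heart muscle and -0.042 for haem synthesis genes.

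The genes whose pattern over the 10 libraries was most like the mean of the 7 were searched among 7625 genes with a symbol and a mean of at least 10 CPM. The 8 nearest had Pearson correlations of log2 CPM from 0.992 to 0.995, over libraries that fall into separate sorts, so the points share their sort. They were wnk4b, hif1al2, the globins hbae4, hbaa1 and 2 HBE1 copies (ENSDARG00000097238 and ENSDARG00000089087), mibp and gpx1a. Wnk4b, a kinase of the WNK family, was at 186, 187, 16.2 and 4.43 CPM on average in the order wild type, clo/+, control and Npas4l OE. Hif1al2, a hypoxia-inducible factor copy, was at 249, 298, 13.9 and 3.89 CPM. Mibp was the only one of the 8 called with Npas4l OE, at -2.77 (SE 0.26, edgeR adjusted p 0.00548).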

How the data were processed

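For each library the authors deposited raw counts over 32520 Ensembl identifiers, followed by 5 summary lines. The submitters' processing notes name GRCz11, FastQC 0.11.4, Trim Galore 0.6.0, HISAT2 2.1.0 and DESeq2 1.22.1; the counter and the use of strand are not given in the sources used here. The summary lines, 50.7% to 59.01% of the reads of a file, stayed out of library sizes and tests; 16.9% to 20.7% had more than 1 alignment. Reads come from amplified cDNA without stated molecular identifiers, so counts are not independent molecules. Replicates are pools of sorted cells; nothing gives their batches.

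Symbols came from a table that covers 29201 identifiers; a zebrafish copy letter was dropped where a listed symbol had no match. Each comparison was fitted with edgeR 4.0.16 in R 4.3.3 (filterByExpr with minimum count 10 and total 15, TMM, quasi-likelihood test). The 2 experiments were fitted apart, and the contrasts across experiments on all 10 libraries. Standard errors are the log2 fold change over the square root of F. CPM uses TMM factors over all 10 libraries; log2 CPM a prior count of 2. The 7 genes and the lists were chosen with earlier results of these data known. Named list genes are those with an adjusted p under 0.05, or else among the 3 with the smallest p in a list. The functions were tested on simulated counts. Alternatives used DESeq2 1.42.0, limma 3.58.1 and other scalings, filters and sample sets. Figures used matplotlib 3.10.9.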

Additional observations from a re-analysis of the deposited data

How the results depend on the processing

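No member was called in clo/+ under any of the 17 alternatives, and 7 of 7 were called between the sorts under all 15. With Npas4l OE, 0 members were called as reported and with RLE factors, library size only, upper quartile factors or globins and the most abundant gene left out. The count was 5 without a filter, with DESeq2 and in one fit of all 10 libraries; 4 with limma-voom, with the replicate block and with adjusted deviance; 1 with at least 10 counts in every library; and 2 to 4 with one library left out. The median of the 7 then ranged from -2.41 to -1.41. Leaving out 1 of 2 libraries assumes that the lone one varies like the others. For the difference between the effects, 0 to 6 members were called and the median ranged from -2.81 to -1.77 with one library left out; library size alone and limma-voom left 4. The median of the 7 between the sorts ranged from 2.44 to 3.13 in such fits.

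Signs turned for cahz and hemgn in clo/+ only: cahz had 0.013 with library size only, hemgn -0.011 with limma-voom and -0.0102 with the replicate block, and with one library left out cahz ranged from -0.086 to 0.016 and hemgn from -0.11 to 0.13. Library size only moved the median of all genes to 0.18 with Npas4l OE and to 0.11 for the difference.

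Counts of all genes called moved most. In clo/+ they were 2 as reported, 1 with upper quartile factors, limma-voom or one fit of all 10 libraries, 4 with at least 10 counts everywhere or adjusted deviance, 211 without a filter, 150 with DESeq2, 120 with the replicate block, and 0 to 17 with one library left out. With Npas4l OE they were 5 as reported, 2 with library size only or without globins, 3 with upper quartile factors, 648 without a filter, 30 with at least 10 counts everywhere, 385 with DESeq2, 90 with limma-voom, 110 in one fit, 187 with the replicate block, 69 with adjusted deviance, and 52 to 1111 with one library left out. Between the sorts there were 3137, and 1786 (without control replicate 2) to 2738 with one library left out. For the difference there were 119, with 67 for library size only, 640 without a filter, 211 with at least 10 counts everywhere, 500 with DESeq2, and 20 to 248 with one library left out. The cause was not tested.

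The deviations of same-numbered libraries correlated at 0.00706 to 0.0797. In the CD41 libraries, differently numbered ones correlated at -0.0835 to 0.0145. With 2 libraries per gata1a group the deviations mirror each other, so every pair there has 0.0563 or -0.0563. Whether the replicate number marks a pairing cannot be decided from these values. Adjusted deviance and the contrast between the effects were added after seeing the data. The tfr1a counts of 18 to 68 limit its precision in the gata1a libraries.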
